A study of Mus musculus with 9 samples.

Results

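Gata6 and 9 further genes for transcription factors and cofactors of the resident macrophage were examined in peritoneal cavity macrophages of mice given interferon: Sox7, Lyl1, Cbfa2t3, Nfic, Rarb, Bhlhe40, Cebpb, Klf4 and Akna. These 10 genes, of 19752 genes with a probe set that carries only their symbol, were chosen from earlier results on the same 9 arrays, partly because several were lower after interferon. Their levels and differences are therefore given as a description, with no test. Each gene was read from the probe set with the highest mean, and all 10 genes had one. All animals were C57BL/6 males aged 6 weeks, and all RNA came from peritoneal lavage cells sorted repeatedly by FACS. IFNa mice (4 arrays) had been injected subcutaneously with 10000 U of recombinant IFNa and IFNg mice (2 arrays) with 8000 U of recombinant IFNg, in each case 2 h before killing. The untreated mice (3 arrays) carry the label of no treatment, so the injection itself cannot be told apart from the interferon. Titles of the untreated samples also carry the tag SPF, which those of the treated samples lack. Whatever that tag stands for cannot be told apart from the treatment either. The phenotype label was F4/80+ ICAM2+ for the treated samples and F4/80+ alone for the untreated ones, although the description of the whole study gives the ICAM sort for the macrophages in general. The labels do not say whether the samples of a group came from separate mice, so p-values measure the spread between these samples.

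Gata6 is the zinc-finger factor that sets the gene program of large peritoneal macrophages, and retinoic acid from the surrounding tissue induces it in them. Mice that lack Gata6 in myeloid cells have fewer large peritoneal macrophages, and those that remain divide and survive abnormally. Lyl1 is a basic helix-loop-helix factor that binds DNA with E proteins in a complex held together by LMO2 and LDB1, and Cbfa2t3 (also called ETO2) is a corepressor of that complex in blood cells. IFNa is a type I interferon and IFNg the type II interferon, and they act through different receptors. Most of what is known of both is the set of genes they raise.

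The genes of the sort markers and of the interferon response were read first. Adgre1, which encodes F4/80, had a geometric mean intensity of 8512.5 with IFNa and 8347.7 with IFNg, against 8272.1 in untreated macrophages, and Icam2 had 2961.1 and 3603.2, against 3490.3. Adgre1 had a log2 difference of 0.04 ± 0.10 for IFNa against untreated and 0.01 ± 0.12 for IFNg against untreated, and Icam2 had -0.24 ± 0.14 and 0.05 ± 0.17 (± SE of the fit, none called). Here and below a gene is called where its Benjamini-Hochberg adjusted p in a limma fit over all 19752 genes was under 0.05. Ifit1, an antiviral gene, rose by 6.12 ± 0.25 with IFNa (adjusted p = 1.58e-06) and by 1.59 ± 0.30 with IFNg (adjusted p = 0.0333). The IFNg call of Ifit1 ended in 9 of 17 alternatives, among them the fits without either IFNg array, IFNa replicate 1, 2 or 3 or untreated replicate 2 (highest adjusted p 0.447). Cxcl9, a chemokine gene of the IFNg response, rose by 4.34 ± 0.20 with IFNg (adjusted p = 6.85e-06) and had 0.27 ± 0.17 with IFNa (adjusted p = 0.661). IFNa replicate 4 and untreated replicate 1 stood apart from the rest: the distance between the quartiles of their log2 values was 2.16 and 2.27, against 2.68 to 3.03 on the other arrays. Values without these 2 arrays are therefore given for each gene that differed.

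Promoters of 7 of the 10 genes were found in the RefSeq promoter table (mouse build GRCm38.p6, 250 bases before to 50 bases after the start site). Gata6, Sox7 and Bhlhe40 had no entry. The 5 promoters below are shown because Lyl1, Cbfa2t3, Nfic and Akna were the genes with an entry that were low on every treated array, and because Rarb is the retinoic acid receptor gene among the 10. Both strands were searched for the GATA motif AGATAA, the interferon-stimulated response element written as GAAANNGAA, the gamma-activated site written as TTCNNNGAA, and the E-box CACGTG. A direct repeat 5 of the retinoic acid receptor was added after the sequences had been seen. Capitals mark a match. Cbfa2t3 and Akna have 2 start sites each in the table, and the upstream one is shown. The sequences run 5′ to 3′ on the gene's strand, and lie at chr8:84701207-84701506 (+ strand, Lyl1), chr8:122699060-122699359 (- strand, Cbfa2t3), chr10:81427124-81427423 (- strand, Nfic), chr4:63403396-63403695 (- strand, Akna) and chr14:16575427-16575726 (- strand, Rarb).
Lyl1: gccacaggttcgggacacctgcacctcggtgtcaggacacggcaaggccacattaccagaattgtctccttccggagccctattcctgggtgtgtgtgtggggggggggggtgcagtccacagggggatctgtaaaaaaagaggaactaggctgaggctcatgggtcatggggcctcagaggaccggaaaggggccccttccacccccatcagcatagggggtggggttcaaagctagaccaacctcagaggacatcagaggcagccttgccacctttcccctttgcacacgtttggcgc
Cbfa2t3: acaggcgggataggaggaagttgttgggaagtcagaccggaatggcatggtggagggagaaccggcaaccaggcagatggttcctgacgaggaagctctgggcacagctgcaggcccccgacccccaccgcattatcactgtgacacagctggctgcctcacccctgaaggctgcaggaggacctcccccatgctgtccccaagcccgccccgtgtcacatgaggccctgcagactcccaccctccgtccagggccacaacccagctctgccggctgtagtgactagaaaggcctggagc
Nfic: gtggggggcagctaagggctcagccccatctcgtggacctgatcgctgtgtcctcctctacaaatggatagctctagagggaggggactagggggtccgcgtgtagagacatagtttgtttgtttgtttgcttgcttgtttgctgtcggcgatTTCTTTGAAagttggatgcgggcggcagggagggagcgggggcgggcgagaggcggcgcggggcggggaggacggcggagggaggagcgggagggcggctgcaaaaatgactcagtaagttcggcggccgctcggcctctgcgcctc
Akna: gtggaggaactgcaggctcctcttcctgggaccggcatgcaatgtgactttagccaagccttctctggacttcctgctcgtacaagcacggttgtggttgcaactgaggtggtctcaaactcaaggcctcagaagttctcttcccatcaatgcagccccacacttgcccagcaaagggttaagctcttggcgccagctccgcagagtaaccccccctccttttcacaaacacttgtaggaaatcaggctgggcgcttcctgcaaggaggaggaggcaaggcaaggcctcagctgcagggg
Rarb: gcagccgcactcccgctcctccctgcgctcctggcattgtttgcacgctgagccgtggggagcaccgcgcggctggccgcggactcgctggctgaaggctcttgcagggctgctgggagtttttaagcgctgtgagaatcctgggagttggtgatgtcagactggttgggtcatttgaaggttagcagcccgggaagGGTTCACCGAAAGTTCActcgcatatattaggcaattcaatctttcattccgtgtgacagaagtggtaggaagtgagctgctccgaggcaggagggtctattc

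No match to AGATAA or GAAANNGAA was found in the 9 promoters of the 7 genes, motifs that 11.2% and 8.56% of all 32851 promoters of the table hold. The gamma-activated site matched in Nfic, 97 bases before the start site, and in Rarb, 51 bases before it (8.3% of all promoters hold it). In Rarb that match lies inside the direct repeat 5, which starts 53 bases before the start site and which 32 of the 32851 promoters (0.0974%) hold. The Rarb repeat is known as the retinoic acid response element through which the gene responds to its own ligand. The E-box form CACGTG matched in Klf4 alone, 182 bases before the start site (7.15% of all promoters). Other forms of the E-box were not searched. The promoters of Lyl1, Cbfa2t3, Akna and Cebpb held no match to the patterns as written. Nor were other forms of the GATA motif searched. The 9 promoters had 56.7% to 81.7% G and C with a median of 63.0%, against a median of 52.7% over the whole table.

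Gata6 had intensities of 2135.6, 1977.6, 1686.6 and 1374.2 on the 4 IFNa arrays and of 1879.7 and 1427.4 on the 2 IFNg arrays, against 3293.0, 3777.7 and 3967.4 on the 3 untreated arrays. Every treated array lay below every untreated array, with a gap of 0.62 (log2) between the highest IFNa and the lowest untreated array and of 0.81 between the highest IFNg and the lowest untreated array. The mean intensity was 1793.5 ± 335.7 with IFNa, 1653.5 ± 319.8 with IFNg and 3679.4 ± 347.8 in untreated macrophages (SD, n = 4, 2 and 3). The log2 difference from untreated was -1.05 ± 0.17 for IFNa (2.07-fold lower) and -1.16 ± 0.21 for IFNg (2.24-fold lower). IFNa and IFNg arrays overlapped, and the difference of IFNa from IFNg was 0.11 ± 0.20. In order of level, untreated macrophages stood highest, and IFNa and IFNg followed without a difference beyond their spread. Without the 2 arrays of narrow range the log2 differences were -1.01 for IFNa and -1.24 for IFNg. Fewer Gata6-expressing cells and less Gata6 RNA per cell cannot be told apart in such bulk RNA.

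Sox7, a SOX factor known from endothelium and early blood formation, had the largest difference of the 10 genes. Its intensity was 146.4, 214.5, 142.7 and 164.4 on the IFNa arrays and 184.6 and 158.6 on the IFNg arrays, against 502.4, 651.8 and 461.6 on the untreated arrays. The lowest untreated array exceeded the highest IFNa array by 1.11 (log2) and the highest IFNg array by 1.32. Sox7 was 3.23-fold lower with IFNa (log2 difference -1.69 ± 0.18) and 3.11-fold lower with IFNg (-1.64 ± 0.21), and -1.73 and -1.68 without the 2 arrays of narrow range.

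Lyl1 had intensities of 784.8, 1050.6, 863.9 and 921.5 with IFNa and of 1082.6 and 1052.3 with IFNg, against 1762.4, 1805.7 and 1850.7 in untreated macrophages. The 3 untreated arrays lay close together, and the treated arrays lay apart from them. Lyl1 was 2.01-fold lower with IFNa (-1.0 ± 0.12) and 1.69-fold lower with IFNg (-0.76 ± 0.14). Cbfa2t3, the corepressor gene, was measured by 2 probe sets. That with the higher mean gave 503.2, 590.2, 469.2 and 624.1 with IFNa and 536.3 and 523.2 with IFNg, against 1045.0, 1260.7 and 921.5 in untreated macrophages. The other gave 453.4, 562.4, 443.3 and 548.6 with IFNa and 529.8 and 562.7 with IFNg, against 1057.3, 992.3 and 1018.7 in untreated macrophages. On both probe sets every treated array lay below every untreated array. The log2 difference of Cbfa2t3 was -0.97 ± 0.15 for IFNa and -1.01 ± 0.18 for IFNg on the first probe set, and -1.03 and -0.91 on the other. Without the 2 arrays of narrow range Lyl1 stood at -1.03 with IFNa and -0.78 with IFNg, and Cbfa2t3 at -1.06 and -1.02.

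Nfic, a nuclear factor I gene, had intensities of 837.3, 904.0, 840.7 and 777.5 with IFNa and of 833.4 and 945.9 with IFNg, against 1527.3, 2168.7 and 1748.6 in untreated macrophages. It was 2.14-fold lower with IFNa (-1.10 ± 0.14) and 2.02-fold lower with IFNg (-1.02 ± 0.16), and the groups lay apart. Akna, an AT-hook protein first described as a transcription factor and later also at the centrosome, had 854.9, 850.6, 721.0 and 553.1 with IFNa and 904.2 and 1144.0 with IFNg, against 1646.2, 1825.0 and 1623.2 in untreated macrophages. Akna was 2.31-fold lower with IFNa (-1.21 ± 0.17) and 1.67-fold lower with IFNg (-0.74 ± 0.20). Its 3 groups did not overlap: IFNa was lowest, then IFNg, then untreated. Without the 2 arrays of narrow range Nfic stood at -1.18 with IFNa and -1.13 with IFNg, and Akna at -1.09 and -0.76.

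**Figure D1:**
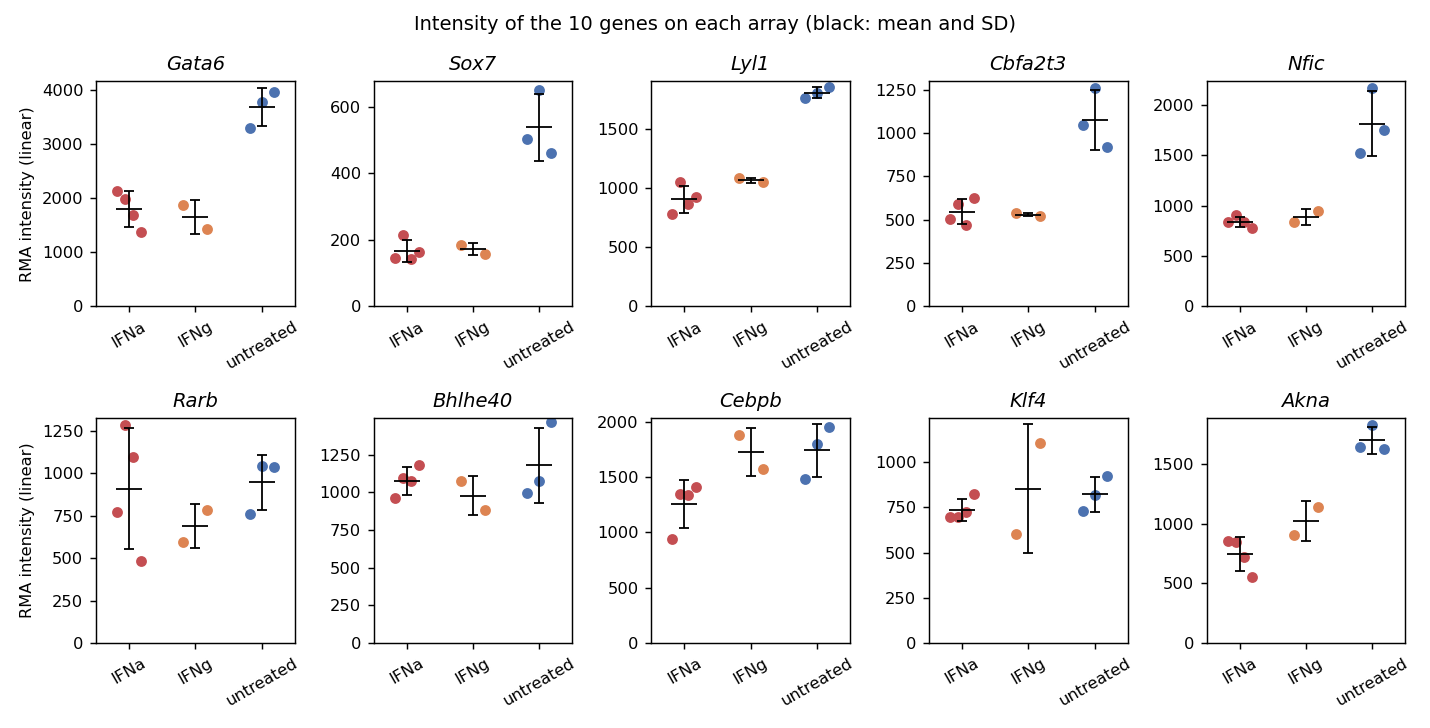
Intensity (linear RMA scale, from 0) of each of the 10 genes on every array, for 4 IFNa, 2 IFNg and 3 untreated arrays; black lines give the mean and SD. In Gata6, Sox7, Lyl1, Cbfa2t3, Nfic and Akna all treated points lie under all untreated points, for Gata6 at 1374.2 to 2135.6 with IFNa and 1427.4 to 1879.7 with IFNg against 3293.0 to 3967.4 untreated.

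Rarb, which encodes a receptor through which retinoic acid acts on its targets, was spread widely within the groups. Its intensity was 773.9, 1288.5, 1097.8 and 483.6 with IFNa and 596.7 and 783.9 with IFNg, against 759.8, 1042.7 and 1040.4 in untreated macrophages. The IFNa arrays held both the highest and the lowest value, and the groups overlapped (log2 difference -0.14 ± 0.30 for IFNa and -0.46 ± 0.36 for IFNg). Bhlhe40, a helix-loop-helix repressor that supports the proliferation of peritoneal macrophages in mice, had 959.9, 1096.7, 1072.9 and 1183.1 with IFNa and 1072.9 and 886.0 with IFNg, against 998.3, 1078.3 and 1465.0 in untreated macrophages. These values overlapped too (-0.11 ± 0.15 for IFNa and -0.26 ± 0.19 for IFNg).

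Klf4, a Krüppel-like factor of monocyte and macrophage differentiation, had 696.3, 696.0, 722.6 and 821.7 with IFNa and 601.9 and 1105.0 with IFNg, against 727.6, 819.8 and 920.6 in untreated macrophages. The 2 IFNg arrays lay on either side of all others. The log2 difference of Klf4 for IFNg against untreated was -0.01 ± 0.23, but 0.43 without IFNg replicate 1 and -0.44 without IFNg replicate 2. Cebpb, a C/EBP factor of macrophage activation that peritoneal macrophages need, had 937.4, 1343.3, 1340.6 and 1409.4 with IFNa and 1877.8 and 1573.1 with IFNg, against 1479.4, 1802.4 and 1947.9 in untreated macrophages. Every IFNa array lay under every untreated array, by a gap of 0.07 (log2) only, while the IFNg arrays lay among the untreated ones. The log2 difference of Cebpb was -0.48 ± 0.17 for IFNa and -0.01 ± 0.20 for IFNg, and that for IFNa was -0.34 without IFNa replicate 1 and -0.65 without the 2 arrays of narrow range.

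Of the 10 genes, 7 lay on every IFNa array below every untreated array and 6 on every IFNg array, shares that over all genes were 6.75% and 15.5%. In the fit over all genes, 0.856% were called lower and 1.79% higher with IFNa, and 0.111% lower and 1.24% higher with IFNg. After quantile normalization 500 genes were called higher and 421 lower with IFNa, against 354 and 169 without it, and 276 higher and 80 lower with IFNg, against 245 and 22. Gata6, Sox7, Lyl1, Cbfa2t3, Nfic and Akna lay below all untreated arrays on all 6 treated arrays, as 3.84% of all genes did. Since the 10 genes were chosen partly for being lower, nothing is read from these shares.

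The 6 genes lay below the untreated mean on each treated array, which their choice as the genes with separate groups fixes. The sizes are given as a description. Their median log2 deviation from the untreated mean was -1.09, -0.94, -1.15 and -1.32 on the IFNa arrays and -0.98 on each IFNg array, against -0.06, 0.18 and -0.05 on the untreated arrays. The comparisons of IFNa and of IFNg share the 3 untreated arrays, so their values are set side by side and not correlated. The median log2 difference of the 10 genes was -0.99 for IFNa and -0.75 for IFNg, against -0.02 and -0.06 over all genes, a contrast that the choice of genes favours.

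**Figure D2:**
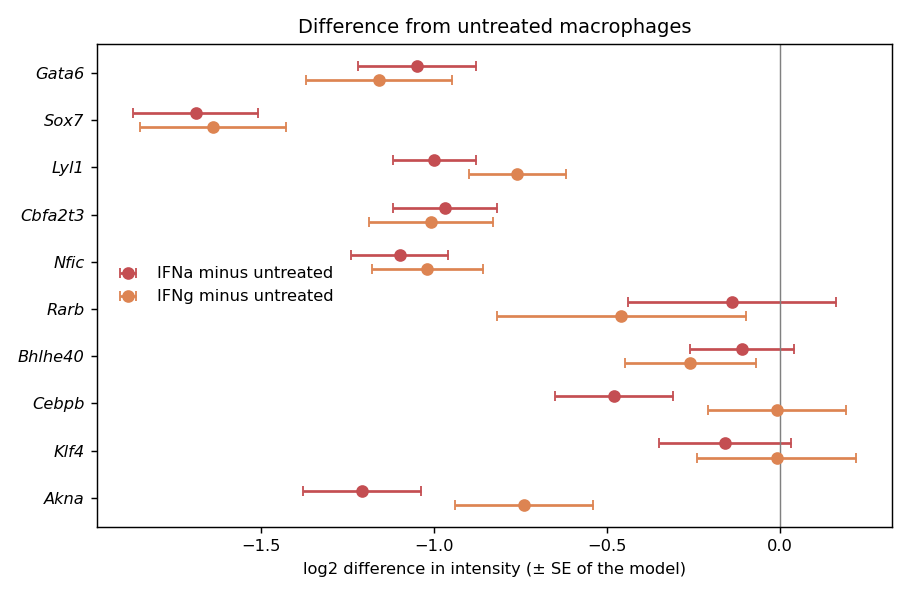
Log2 difference in intensity from untreated macrophages (horizontal axis) for the 10 genes, for IFNa above and IFNg below in each pair; bars are the SE of the limma fit. Gata6, Sox7, Lyl1, Cbfa2t3, Nfic and Akna lie between -1.69 and -0.74, and Rarb, Bhlhe40, Cebpb and Klf4 between -0.48 and -0.01.

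Set directly against each other, IFNa and IFNg arrays overlapped for 7 of the 10 genes. Lyl1, Cebpb and Akna lay on every IFNa array below both IFNg arrays (log2 differences of IFNa from IFNg of -0.25 ± 0.14, -0.47 ± 0.19 and -0.47 ± 0.19), and 15.6% of all genes did so. For Lyl1 the groups barely parted, the highest IFNa array being at 1050.6 and the lowest IFNg array at 1052.3. Lyl1 stood at -0.12 after quantile normalization. Of all genes 0.44% were called higher and 0.537% lower with IFNa in this comparison. After quantile normalization 160 genes were called higher and 116 lower, against 87 and 106 without it.

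Paralogs of Gata6 and its cofactors did not pass the test. Of 7 GATA and FOG genes 0 were called with either interferon, with medians of -0.09 for IFNa and -0.18 for IFNg. Gata2, the factor of blood stem cells and mast cells, had -0.07 ± 0.16 with IFNa and -0.21 ± 0.19 with IFNg. Zfpm1, which encodes the GATA cofactor FOG1, had the lowest value of the list, -0.45 ± 0.12 with IFNa (adjusted p = 0.11) and -0.38 ± 0.15 with IFNg (adjusted p = 0.502). Gata1, Gata3, Gata4 and Gata5 had -0.10 to 0.02 with IFNa and -0.20 to -0.18 with IFNg. In untreated macrophages Gata1 to Gata5 had geometric mean intensities of 71.3 to 233.2 and Zfpm2 had 74.7. The median intensities of the arrays were 162.2 to 178.3. At such levels the lack of a call does not set Gata6 apart from its paralogs.

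Genes described in mouse large peritoneal macrophages as tied to Gata6 were next read. The list had 27 names, among them Gask1b also under its former name Fam198b, and 24 genes had a value. With IFNa 0 of the 24 were called and with IFNg 1 was called higher, with medians of -0.06 and -0.10. Tgfb2, a growth factor gene that needs Gata6 in these cells, had geometric mean intensities of 3288.1 with IFNa and 3071.3 with IFNg, against 5133.9 in untreated macrophages. Each treated array was lower, but the differences did not pass the test (-0.64 ± 0.20, adjusted p = 0.182, and -0.74 ± 0.24, adjusted p = 0.352). Garnl3 was also lower on each treated array and not called (-0.42 ± 0.18 with IFNa and -0.50 ± 0.22 with IFNg). With IFNa the values of the list ran from -0.85 ± 0.35 for Gask1b to 0.58 ± 0.32 for Apoc1, both with arrays that overlapped the untreated ones. Alox15, the lipoxygenase of resident peritoneal macrophages, had 0.10 ± 0.10 with IFNa and 0.13 ± 0.12 with IFNg, and Prg4, which encodes the lubricant proteoglycan lubricin, had -0.08 ± 0.10 and -0.11 ± 0.12. Aspa, the aspartoacylase gene, rose by 1.14 ± 0.23 with IFNg (adjusted p = 0.0445) and had 0.36 ± 0.19 with IFNa (adjusted p = 0.542). The Aspa call ended in 12 of 17 alternatives, among them the fits without either IFNg array, without IFNa replicate 1, 2 or 3 and without untreated replicate 1 or 2 (adjusted p between 0.0516 and 0.47). Arg1, the arginase gene, had 0.48 ± 0.24 and 0.50 ± 0.28.

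Of 20 genes whose products act with Lyl1 or Cbfa2t3, 1 rose and 2 fell with IFNa, and 1 rose and 1 fell with IFNg (medians -0.08 and -0.09). Tal1, the paralog of Lyl1, had -0.11 ± 0.12 and -0.11 ± 0.14. Ldb1, which bridges the complex, fell by 0.63 ± 0.13 with IFNa (adjusted p = 0.0297) and had -0.20 ± 0.15 with IFNg. Tcf3, an E protein that pairs with Lyl1, fell by 0.57 ± 0.11 with IFNa (adjusted p = 0.0293), while Tcf4, another E protein, rose by 0.73 ± 0.13 with IFNa (adjusted p = 0.0163). Tcf4 had a geometric mean intensity of 1276.7 with IFNa and 771.1 with IFNg, against 769.0 in untreated macrophages. Gfi1b, a zinc-finger repressor, fell by 1.06 ± 0.19 with IFNg (adjusted p = 0.025). Runx1, the blood-forming Runt factor, rose by 0.90 ± 0.15 with IFNg (adjusted p = 0.0196) and was lower with IFNa than with IFNg by 1.08 ± 0.15 on the log2 scale (adjusted p = 0.00672). Without 1 array these calls ended as follows: Ldb1 and Tcf3 without IFNa replicate 1, 2 or 3, either IFNg array or untreated replicate 2 or 3 (highest adjusted p 0.171 and 0.132), and Tcf4 without IFNa replicate 1 or 3 (0.0575). Gfi1b ended without either IFNg array, IFNa replicate 1 or 2, or untreated replicate 1 or 2 (highest adjusted p 0.288). Runx1 ended without either IFNg array in both comparisons, and for IFNg against untreated also without untreated replicate 1 or 2 (highest adjusted p 0.256). Fits of only the 2 groups compared also ended the calls of Ldb1, Tcf3, Gfi1b and Runx1 (IFNg against untreated), an intensity trend those of Ldb1 and Tcf3, median centring that of Tcf3 and quantile normalization that of Gfi1b.

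**Figure D3:**
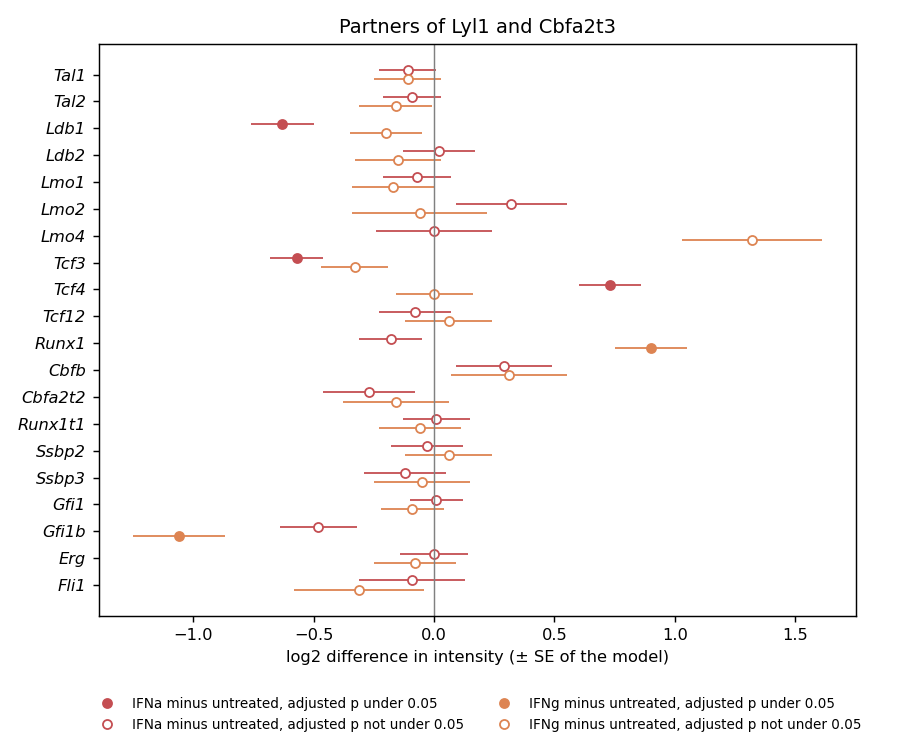
Log2 difference in intensity from untreated macrophages for 20 genes that act with Lyl1 or Cbfa2t3, IFNa above IFNg for each gene; bars are the SE of the limma fit and filled points have an adjusted p under 0.05. Ldb1 (-0.63) and Tcf3 (-0.57) with IFNa and Gfi1b (-1.06) with IFNg are the filled points left of 0.

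The families of Sox7, Nfic and Klf4 held no called gene among their other members. Of 18 further SOX genes and of 3 further NFI genes 0 were called with either interferon. Sox17 and Sox18, the nearest paralogs of Sox7, had 0.00 ± 0.13 and -0.13 ± 0.14 with IFNa and -0.19 ± 0.16 and -0.15 ± 0.17 with IFNg. Their geometric mean intensities in untreated macrophages were only 61.5 and 161.5, below the median of every array. Nfix, which is also the next protein-coding gene beside Lyl1, had -0.20 ± 0.13 and -0.29 ± 0.16. Among 16 KLF genes 0 were called, Klf2 having 0.06 ± 0.18 with IFNa and 0.16 ± 0.22 with IFNg and Klf6 0.47 ± 0.22 and 0.47 ± 0.26. Klf7 and Klf13 had the lowest values of the list with IFNa, -0.91 ± 0.22 (adjusted p = 0.0654) and -0.49 ± 0.11 (adjusted p = 0.0612). Every IFNa array lay below every untreated array for both. With IFNg they overlapped the untreated arrays (-0.12 ± 0.26 and -0.06 ± 0.14).

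Of 19 measured genes of the retinoid pathway 0 were called (medians -0.12 with IFNa and -0.18 with IFNg). Rara, which encodes retinoic acid receptor alpha, had a geometric mean intensity of 913.9 with IFNa and 1916.2 with IFNg, against 935.4 in untreated macrophages. Both IFNg arrays lay above all untreated arrays, but the difference of 1.03 ± 0.23 did not pass the test (adjusted p = 0.0859). Rarg, which encodes receptor gamma, had -0.65 ± 0.17 with IFNa (adjusted p = 0.0898) and -0.55 ± 0.20 with IFNg (adjusted p = 0.454). Rxra, the partner receptor, had -0.39 ± 0.15 and -0.08 ± 0.18. Aldh1a2, which makes retinoic acid, had 0.32 ± 0.24 and 0.20 ± 0.28.

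Around Bhlhe40, 1 of 15 measured clock genes was called: Per1, a repressor of the clock, fell by 0.83 ± 0.18 with IFNa (adjusted p = 0.049). Bhlhe41, the paralog of Bhlhe40, had geometric mean intensities of 39.7 with IFNa and 34.4 with IFNg, against 44.5 in untreated macrophages, close to the 5th percentile of the arrays (23.6 to 33.9). Around Cebpb, 1 of 5 measured C/EBP genes was called: Cebpa, the C/EBP factor of myeloid commitment, fell by 0.93 ± 0.21 with IFNa, with an adjusted p at the threshold (0.05). Cebpa had a geometric mean intensity of 511.0 with IFNa and 652.7 with IFNg, against 971.5 in untreated macrophages. The calls of Per1 and Cebpa ended in 11 and 10 of 17 alternatives. For both these include the fits without either IFNg array, IFNa replicate 2 or 3 or untreated replicate 2 or 3, and further those without IFNa replicate 4 (Per1) and IFNa replicate 1 (Cebpa). The highest adjusted p was 0.193 for Per1 and 0.244 for Cebpa, each without untreated replicate 2. Both calls also ended with median centring, with only the 2 groups compared and with an intensity trend, and that of Per1 with the replicate block.

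Among 29 measured transcription factor genes of macrophages in general or of other tissue macrophages, 3 rose and 2 fell with IFNa, and 5 rose and 0 fell with IFNg (medians -0.05 and -0.10). Beside Cebpa, Tfeb, a factor of lysosome genes, fell with IFNa by 0.66 ± 0.12 (adjusted p = 0.0221). Tfec, its macrophage relative, rose by 1.78 ± 0.32 with IFNa (adjusted p = 0.0165) and by 2.34 ± 0.38 with IFNg (adjusted p = 0.0162). Tfec had a geometric mean intensity of 1955.6 with IFNa and 2882.2 with IFNg, against 567.9 in untreated macrophages. Bach1, a heme-sensing repressor, rose by 0.69 ± 0.13 with IFNa (adjusted p = 0.0211) and by 0.84 ± 0.15 with IFNg (adjusted p = 0.03). Maf, a bZIP factor of resident macrophages, rose by 0.79 ± 0.17 with IFNa (adjusted p = 0.0446).

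Irf8, a factor of monocytes and macrophages that IFNg is known to induce, rose by 1.98 ± 0.18 with IFNg (adjusted p = 0.000532) and had -0.09 ± 0.15 with IFNa. IFNa stood below IFNg for Irf8 by 2.08 ± 0.17 (adjusted p = 0.000506), and no alternative ended that call. Egr2, a zinc-finger factor, rose by 1.64 ± 0.30 with IFNg (adjusted p = 0.0301), and IFNa stood below IFNg by 1.77 ± 0.29 (adjusted p = 0.0187). Spi1, which encodes PU.1, had -0.19 ± 0.14 with IFNa and 0.05 ± 0.17 with IFNg. Runx3 had -0.63 ± 0.15 (adjusted p = 0.0603) and -0.61 ± 0.17 (adjusted p = 0.223).

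Most of the calls in this list ended without some array. Tfec with IFNa ended without IFNa replicate 1 (adjusted p = 0.056) and with IFNg without either IFNg array (highest adjusted p 0.209). Bach1 with IFNa ended without either IFNg array, IFNa replicate 1 or untreated replicate 1 or 2 (highest adjusted p 0.0731), and with IFNg also without IFNa replicate 2 or 3 (highest adjusted p 0.356). Tfeb ended without either IFNg array, IFNa replicate 1 or 3 or untreated replicate 2 (highest adjusted p 0.134), and Maf when any single array but IFNa replicate 4 was left out (highest adjusted p 0.113). Egr2 with IFNg ended when any single array but IFNg replicate 1 or IFNa replicate 4 was left out (highest adjusted p 0.114), and between the interferons without IFNa replicate 1, 2 or 3 (highest adjusted p 0.0633). Fits of only the 2 groups compared also ended each of these calls but that of Tfec with IFNa, and quantile normalization those of Bach1, Tfeb and Maf. An intensity trend ended Bach1 with IFNg and Maf, the replicate block ended Maf, and omission of the 2 arrays of narrow range ended Egr2 with IFNg.

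**Figure D4:**
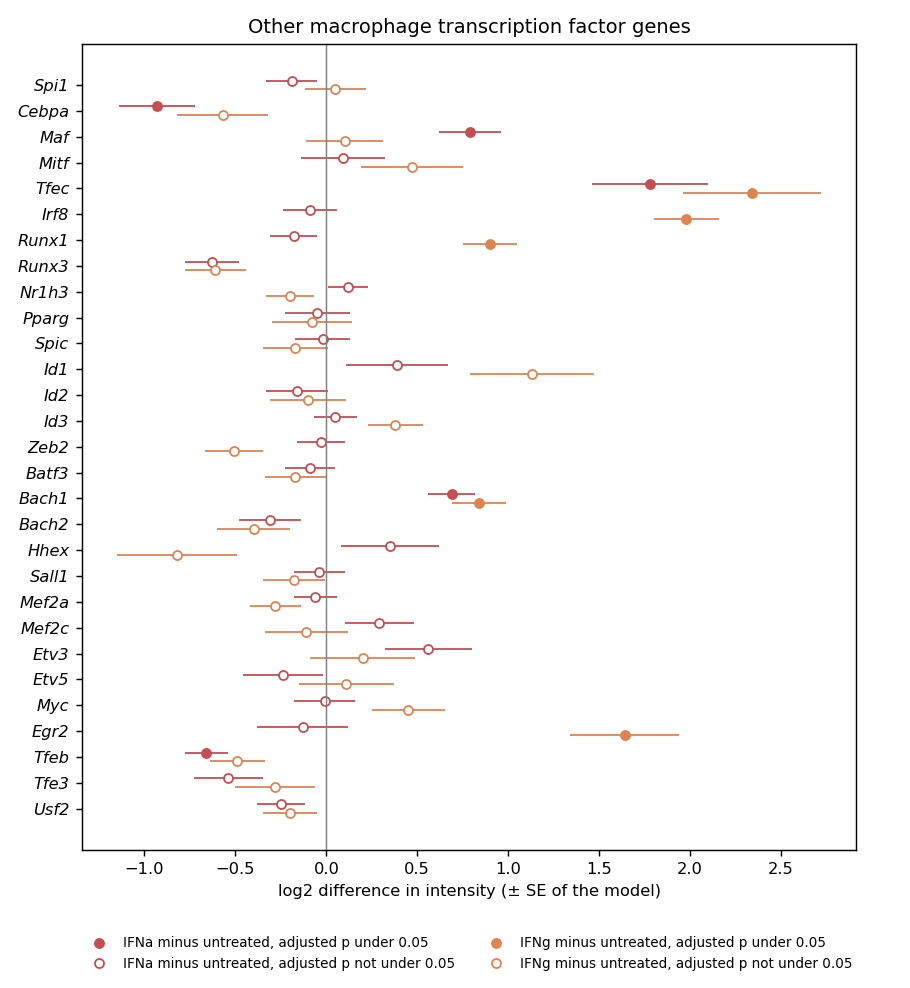
Log2 difference in intensity from untreated macrophages for 29 further macrophage transcription factor genes, IFNa above IFNg for each gene; bars are the SE of the limma fit and filled points have an adjusted p under 0.05. Tfec stands at 1.78 with IFNa and 2.34 with IFNg, Irf8 at -0.09 and 1.98, and Cebpa at -0.93 and -0.57.

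Genes of rapid induction were read because handling can move them. Of 21 immediate early genes, 2 rose and 3 fell with IFNa and 1 rose with IFNg, with medians of -0.27 and -0.17. Without the 2 arrays of narrow range the IFNa median was -0.52. Atf3, a stress-induced repressor, rose by 1.61 ± 0.21 with IFNa (adjusted p = 0.00225) and by 1.71 ± 0.25 with IFNg (adjusted p = 0.00929). Gadd45b rose by 0.78 ± 0.17 with IFNa (adjusted p = 0.0476). Jund, Ier2 and Nr4a1 fell with IFNa by 0.61 ± 0.10 (adjusted p = 0.011), 0.84 ± 0.18 (adjusted p = 0.0402) and 0.87 ± 0.19 (adjusted p = 0.0399). Atf3 with IFNg ended without either IFNg array (highest adjusted p 0.14), Jund without untreated replicate 2 (0.0724), and Gadd45b, Ier2 and Nr4a1 each without 7 or 8 of the 9 arrays. The part of handling in the levels of the 10 genes was not tested.

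Markers of other cells that the sort could hold were read next, beside those of the sorted cells. The 8 measured markers of large peritoneal macrophages summed to intensities of 44602 to 50110 with IFNa and 46558 to 48783 with IFNg, against 45853 to 47600 in untreated macrophages. Mertk was the single called marker gene of all cell type lists (0.62 with IFNa, adjusted p = 0.0318), and that call ended without 7 of the 9 arrays. Endothelial markers, whose cells also express Sox7, summed to 917 to 1083 with IFNa and 868 to 920 with IFNg, against 830 to 1059 in untreated macrophages, and 0 of 9 were called. Mast cell markers summed to 344 to 407 with IFNa and 337 to 338 with IFNg, against 394 to 532 in untreated macrophages. Of these 6 markers 2 lay below the lower quartile of all genes on every array and 0 were called. B cell markers reached 1885 on IFNa replicate 2 and 471 to 742 on the other IFNa arrays and 504 to 554 with IFNg, against 608 to 925 in untreated macrophages. On IFNa replicate 2 the median deviation of the 6 low genes was -0.94, against -1.32 to -0.98 on the other treated arrays. Among the 6 only Sox7 deviated least on that array (-1.31). T and NK markers summed to at most 734 on any array, granulocyte markers to at most 836 and mesothelial markers to at most 1195. Markers of small peritoneal macrophages, monocytes and dendritic cells summed to 7151 to 9399 with IFNa and 8707 to 8893 with IFNg, against 7414 to 8638 in untreated macrophages. Most of that sum was Retnla, with geometric means of 5277.8 with IFNa, 5252.7 with IFNg and 4928.7 in untreated macrophages. Erythroid and platelet markers summed to 6149 to 8482 with IFNa and 8351 to 8785 with IFNg, against 7887 to 8160 in untreated macrophages. Nearly all of it was Pf4, with geometric means of 7083.9 with IFNa, 8168.8 with IFNg and 7548.1 in untreated macrophages. The other measured genes of that list had 55.8 to 174.9 in untreated macrophages, so the sum mostly follows Pf4. The part of such cells in the levels of the 10 genes was not tested.

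The genes whose pattern was most like that of Gata6 were sought among 9580 named genes above the median level, by Pearson's r of log2 values over the 9 arrays. The 8 nearest were Micall2 (0.964), Efnb2 (0.949), Prtg (0.948), Rgs3 (0.944), Engase (0.943), Plekhh3 (0.939), Cbx8 (0.937) and Soga1 (0.937). Over the 7 arrays without those of narrow range r was between 0.921 and 0.963 for these genes. The arrays fall into 3 groups, so r carries the difference between groups. All 8 were lower with both interferons, by 0.52 to 1.61 (log2) with IFNa and by 0.62 to 1.38 with IFNg, which the choice by likeness fixes. Engase, a cytosolic enzyme that trims N-glycans, had the largest differences (-1.61 ± 0.19 and -1.38 ± 0.23). Efnb2, an ephrin ligand known from arterial endothelium, had -0.86 ± 0.20 and -1.10 ± 0.24.

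The nearest protein-coding gene with a value on each side of each of the 10 genes, by their order in the RefSeq annotation of GRCm38.p6, was read after the data had been seen. Of these 20 neighbours 1 was called: Tmem189 beside Cebpb fell by 0.73 ± 0.15 with IFNa (adjusted p = 0.0317). That call ended in 8 of 17 alternatives, among them the fits without either IFNg array, IFNa replicate 1 or 3 or untreated replicate 2 or 3 (highest adjusted p 0.124). Beside Gata6, Mib1 had 0.07 ± 0.17 with IFNa and 0.12 ± 0.21 with IFNg, and Cables1 had -0.63 ± 0.17 (adjusted p = 0.0947) and -0.56 ± 0.20 (adjusted p = 0.418). Beside Sox7, Pinx1 had 0.62 ± 0.26 and 0.83 ± 0.31 (adjusted p = 0.378 and 0.49). Beside Lyl1, Trmt1 had -0.26 ± 0.14 and 0.03 ± 0.17.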

How the data were processed

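RNA of 9 samples was labelled with biotin and hybridised to whole-transcript Affymetrix arrays, per the labels. The values are linear intensities that the authors deposited, made with Affymetrix Power Tools and RMA per the submitters' processing notes, which give no versions. Of 24922 probe sets, 21425 carried 1 gene symbol, 1399 several and 2098 none, by the platform annotation. The 21425 gave 19752 genes, each read from its probe set with the highest mean. Symbols were updated through Entrez for 19677 genes. Log2 of the values was fitted with limma 3.58.1 (R 4.3.3; lmFit with 3 group means and eBayes over all 9 arrays, 6 residual and 3.62 prior degrees of freedom), with Benjamini-Hochberg adjustment over all genes. Tables were made with Python 3.11.15 and pandas 2.3.3. The number of arrays limits the precision.

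Groups came from the treatment label. The descriptions of some treated samples number the replicates otherwise than the titles do, and that of IFNa replicate 1 names an interferon without its type. Whether the 9 arrays were hybridised and normalized together is not given in the sources used here, so a separate run of a group cannot be told apart from its treatment. The numbers used here are those of the titles. The 10 genes and all gene lists were chosen with earlier results of these data known. Named list genes are the 4 with the smallest p among those called in a contrast, a set of fixed paralogs, and the 8 genes most like Gata6. Gadd45b and the list genes named though not called, other than the fixed paralogs, were chosen after their values were seen. Selp and a few other list genes had no probe set of 1 symbol and were not analysed here. Alternatives were quantile normalization, median centring, a filter on the dimmest 30% of genes, only the 2 groups compared, an intensity trend, array weights, omission of the 2 arrays of narrow range, the replicate block, each array left out, and the other probe set of Cbfa2t3. The motif of the direct repeat and the neighbouring genes were added after the data had been seen.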

Additional observations from a re-analysis of the deposited data

Results flagged for a closer look

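On the IFNa arrays, Cebpb was lowest on replicate 1 (937.4), and its gap to the next array was 0.877 of the group's whole log2 range, above the 95% critical value of 0.829 for 4 arrays. In 10 such groups, of 4 IFNa arrays for each gene, this was the only gap that large. Chance gives such a gap in about 1 of 20 groups, so with 10 groups nothing is read from it.

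For 3 macrophage transcription factor genes the difference between IFNa and IFNg passed the test itself. On the log2 scale IFNa minus IFNg was -2.08 for Irf8, -1.77 for Egr2 and -1.08 for Runx1, and each was higher with IFNg.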

How the results depend on the processing

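The differences of Gata6 from untreated kept their direction in all 17 alternatives, from -1.15 to -0.93 for IFNa and from -1.36 to -0.96 for IFNg. Of 513 recomputed differences of the 10 genes, 499 moved by less than the spread between replicates and none of those with separate groups turned. Both the 17 and the 513 include alternatives that cannot move a difference of group means. These are the filter on dim genes, only the 2 groups compared, the intensity trend, and omission of an array of the third group. Counts of calls over all genes moved more. For IFNa against untreated, the count of higher genes, 354, was 2333 with array weights and 587 with the replicate block. The count of lower genes, 169, was 421 after quantile normalization, 105 after median centring, 74 with only the 2 groups compared, 100 with an intensity trend, 3240 with array weights and 638 without the 2 arrays of narrow range. For IFNg against untreated, the count of higher genes, 245, was 112 with only the 2 groups compared, 2735 with array weights and 589 with the replicate block. The count of lower genes, 22, was 80 after quantile normalization, 7 with only the 2 groups compared, 3432 with array weights, 145 without the 2 arrays of narrow range and 110 with the replicate block. For IFNa against IFNg, the count of higher genes, 87, was 160 after quantile normalization, 614 with array weights and 250 without the 2 arrays of narrow range. The count of lower genes, 106, was 1031 with array weights and 292 without the 2 arrays of narrow range. Leaving out 1 array gave 27 to 255 lower genes for IFNa, 79 to 363 higher and 1 to 44 lower genes for IFNg, and 21 to 130 higher and 21 to 146 lower genes for IFNa against IFNg. Array weights ran from 0.12 (IFNa replicate 4) to 5.07 (untreated replicate 2).

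Same-numbered IFNa and untreated samples correlated in their deviations from the group means at -0.21, 0.17 and 0.60. Differently numbered IFNa and untreated samples correlated at -0.61 to 0.61. Deviations within groups of so few arrays are tied to each other, so these values cannot decide whether the numbers pair the samples. With the replicate block the log2 difference of Gata6 for IFNa was -0.93, the same as without IFNa replicate 4. Only IFNa has a replicate 4, so the block takes that array out of this comparison. The value therefore shows no effect of pairing. The cause of the other shifts was not tested.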
